A study of Mus musculus with 3 samples.

Results

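The macrophages described here were 808 cells of the tendon injury site that carried *Csf1r* and C1q transcripts together with transcripts of 1 or more of *Folr2*, *Cd163* and *Cbr2*. They made up 16.2% (95% exact Clopper-Pearson interval 15.2 to 17.3) of the 4978 cells of their library, and 808 of the 9002 cells of the whole series, left by a filter that required 200 or more genes per cell and allowed up to 20% of mitochondrial transcripts. Within the filtered tendon library, cells were kept in turn for at least 1 *Csf1r* transcript (2770 cells), for fewer than 5 transcripts of the proliferation genes *Mki67* and *Top2a* (2596 cells), for under 2% of transcripts from the neutrophil genes *S100a8* and *S100a9* (2475 cells), and for at least 10 transcripts of *C1qa*, *C1qb* and *C1qc* per 10000 (1392 cells, called C1q macrophages). The 808 members of the group, 58.0% of those 1392 cells, were then selected on at least 3 transcripts of *Folr2*, *Cd163* and *Cbr2* added together, so the measured values of these genes chose them. Transcripts were counted as unique molecular identifiers (UMIs), and levels are given as UMIs per 1000000 UMIs of the summed cells (CPM).

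The series holds 1 single-cell RNA-seq library from each of 3 sources, which were the injured tendon, blood and bone marrow (the first is also called the HO site, for heterotopic ossification, in which bone forms within soft tissue). All came from 10-week-old mice, given in the study's methods as male C57BL/6J animals, at day 3 after a back burn combined with full transection of the Achilles tendon, so every group carried the injury and no uninjured group was compared. The cells were unsorted. Bone marrow was flushed, blood was a density gradient fraction, and only the injury site was released with enzymes, so tissue, preparation and library cannot be told apart. The number of animals behind each library was not given in the sources used here. With 1 library per tissue there was no replicate and no test between conditions: intervals cover counting error only, and a difference is called higher or lower where the ratio of summed CPM reached 2-fold.

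Macrophages fall broadly into long-lived cells seeded in a tissue and cells that arrive as blood monocytes after injury. FOLR2 (folate receptor beta), the hemoglobin-haptoglobin receptor CD163 and the mannose receptor MRC1 are classical surface proteins of resident macrophages around vessels and in connective tissue, where LYVE1 often accompanies them. Such cells are known for clearing debris and hemoglobin and for secreting complement C1q, growth factors and chemokines. Monocytes that have just entered a wound are known for *Ly6c2*, *Ccr2* and *Il1b*, and antigen-presenting macrophages for MHC class II.

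The members held 13044136 UMIs, 14.7% of those of the filtered tendon cells. Their median was 15278 UMIs and 3424 genes per cell, with the lowest 10% at or under 7640.5 UMIs and the highest 10% at or over 24559. The entry rule counts raw UMIs, so deeper cells entered more easily: the 339 C1q macrophages with no UMI of *Folr2*, *Cd163* or *Cbr2* had a median of 11238 UMIs. The whole tendon library held 90621052 UMIs (median 11082 per barcode), bone marrow 49580625 (median 22836) and blood 22542581 (median 8316). Only 6 cell barcodes were shared between blood and tendon, 1 of them in a member, and 1 between bone marrow and tendon.

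The label was checked against macrophage markers. All 14 markers of the macrophage list were detected in the members, and the 7 that the rule did not use summed to 5901 CPM, against 2492 CPM in C1q macrophages without the 3 genes and 1198 CPM in the C1q-low *Csf1r* cells described below. Of these sums, *Mrc1* and *Ccl8*, which are named with these macrophages, gave 3692, 589 and 294 CPM. They were the only 2 of the 7 that were higher at 2-fold than in C1q macrophages without the 3 genes, while 6 were higher than in C1q-low cells. Markers of lymphoid and mast cells were at or near 0, since T cell markers summed to 2 UMIs over all members, with *Cd3e*, *Cd3g* and *Cd2* at 0. NK markers summed to 2 UMIs, mast cell and basophil markers to 6, B cell markers to 146, and tenocyte markers to 30 with *Mkx* at 0. Markers of other myeloid cells were present: monocyte markers summed to 1017 CPM, with at least 3 of them in 37.6% of members, and neutrophil markers to 179.5 CPM, with at least 3 in 11.3% of members and 9.44% of C1q macrophages without the 3 genes. Fibroblast markers summed to 204 CPM in members and 242 CPM in C1q macrophages without the 3 genes, with *Col3a1* the most abundant at 67.4 and 86.1 CPM. At least 3 of the 6 fibroblast markers were present in 46 members (5.69%) and 6 of the other C1q macrophages (1.77%), and their part in the results was not tested. The defining genes of the most classical long-lived macrophages were almost missing, with *Timd4*, a receptor for dying cells, at 0.460 CPM, and *Vsig4*, a complement receptor, at 1.76 CPM, while blood *Csf1r* cells held 30.8 and 10.5 CPM of them.

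Very few cells outside the tendon met the same steps. In blood 4 of 2184 cells did (0.183%, exact interval 0.0499 to 0.468), or 4 of 41 C1q cells. In bone marrow 1 of 1840 cells did (0.0543%, 0.00138 to 0.302), of 3 C1q cells. Blood and marrow *Csf1r* cells were therefore used only as levels set beside those of the tendon.

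The 3 genes that chose the members are given as a description. *Folr2*, which encodes the folate receptor, lay on chromosome 7 (101839988 to 101857194, minus strand, GRCm38), was present in 759 members (93.9%), and reached 378 CPM. *Cbr2*, a carbonyl reductase gene on chromosome 11 (120729489 to 120732114, minus strand), was present in 658 members (81.4%) at 396 CPM. *Cd163*, on chromosome 6 (124304656 to 124330527, plus strand), was present in only 415 members (51.4%), yet its level was as high, at 379 CPM. The genes overlapped without being inseparable: 348 members (43.1%) carried all 3, 328 carried exactly 2, 102 had *Folr2* alone, 25 *Cbr2* alone and 5 *Cd163* alone. Members held a median of 11.0 UMIs of the 3 genes, with the highest 10% at or over 42.0 and a highest value of 210. Around the threshold, *Mrc1* was at 761 CPM in the 94 cells with 2 UMIs, 923 CPM in the 79 members with 3 and 945 CPM in the 81 with 4. *Ccl8* was at 116, 299 and 146 CPM in the same cells, so it did not run in order there. A further 78 C1q-low cells held 3 or more UMIs of the 3 genes, and 62 cells met every step but the proliferation step.

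The sequences just upstream of the genes that name these cells are shown so that the genes of the rule can be read side by side with *Mrc1* and *Ccl8*. Each is the 250 bases before a RefSeq start in GRCm38.p6, written 5′ to 3′ on the gene's strand. Capitals mark 2 motifs of macrophage transcription factors searched on both strands, GAGGAA (or TTCCTC on the other strand), the core bound by PU.1, and TGCTGA (or TCAGCA), the core of the MAF recognition element. The windows are chr7:101857191-101857440 (minus) and chr7:101845332-101845581 (minus) for the 2 starts of *Folr2*, chr6:124304401-124304650 (plus) for *Cd163*, chr11:120732022-120732271 (minus) for *Cbr2*, chr2:14229164-14229413 (plus) for *Mrc1* and chr11:82114935-82115184 (plus) for *Ccl8*.
Folr2 start 1: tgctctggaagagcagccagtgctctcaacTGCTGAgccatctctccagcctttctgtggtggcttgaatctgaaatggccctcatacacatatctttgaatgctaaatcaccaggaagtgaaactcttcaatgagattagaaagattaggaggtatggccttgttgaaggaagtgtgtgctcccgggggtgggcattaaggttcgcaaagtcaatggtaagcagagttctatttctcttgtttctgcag
Folr2 start 2: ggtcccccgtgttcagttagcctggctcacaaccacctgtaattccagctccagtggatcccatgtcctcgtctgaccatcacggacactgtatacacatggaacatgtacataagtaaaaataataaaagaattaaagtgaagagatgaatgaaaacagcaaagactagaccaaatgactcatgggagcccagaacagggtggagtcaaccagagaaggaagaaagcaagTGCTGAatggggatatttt
Cd163: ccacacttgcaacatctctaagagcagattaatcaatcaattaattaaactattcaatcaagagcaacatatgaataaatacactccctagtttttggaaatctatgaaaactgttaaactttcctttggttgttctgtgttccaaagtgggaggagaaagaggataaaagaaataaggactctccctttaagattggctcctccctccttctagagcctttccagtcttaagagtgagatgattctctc
Cbr2: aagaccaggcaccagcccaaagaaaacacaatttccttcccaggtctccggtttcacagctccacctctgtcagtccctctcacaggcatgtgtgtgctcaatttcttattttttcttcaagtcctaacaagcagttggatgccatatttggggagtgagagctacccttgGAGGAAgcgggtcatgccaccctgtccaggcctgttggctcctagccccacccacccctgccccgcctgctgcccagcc
Mrc1: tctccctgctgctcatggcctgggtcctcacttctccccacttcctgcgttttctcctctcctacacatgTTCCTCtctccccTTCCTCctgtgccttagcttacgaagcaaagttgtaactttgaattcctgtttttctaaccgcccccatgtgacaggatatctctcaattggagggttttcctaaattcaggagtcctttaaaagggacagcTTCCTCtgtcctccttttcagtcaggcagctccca
Ccl8: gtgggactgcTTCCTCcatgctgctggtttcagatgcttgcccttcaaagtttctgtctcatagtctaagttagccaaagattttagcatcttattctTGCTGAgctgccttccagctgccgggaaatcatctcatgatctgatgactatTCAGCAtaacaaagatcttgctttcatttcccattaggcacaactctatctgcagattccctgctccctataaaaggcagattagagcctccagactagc
The PU.1 core occurred 3 times upstream of *Mrc1*, once upstream of *Cbr2* and once upstream of *Ccl8*. The MAF core occurred once before each *Folr2* start and 2 times upstream of *Ccl8*, which alone of these windows held both motifs. Neither set of letters was in the *Cd163* window. Over all 32851 promoter entries of the same length, 23.3% held the PU.1 core, 16.1% the MAF core and 3.68% both, so a match is common and describes the sequence only.

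Members were first compared with the 339 C1q macrophages that lacked the 3 genes, which asks how macrophages with these genes differed from other C1q macrophages of the same injury. At least 3 monocyte markers were present in 57.2% of these 339 cells, against 37.6% of members. The 245 C1q macrophages with 1 or 2 UMIs of the 3 genes were in neither group. Summed CPM of the members was higher by 2-fold or more for 411 of 8130 genes with at least 100 UMIs over both groups (5.06%) and lower for 177 (2.18%). With the 245 cells added to the comparison cells, 255 genes were higher. The 11 genes used by the rule were left out. The median gene stood at a log2 ratio of 0.16, and with every ratio taken relative to that shift 268 genes were higher and 239 lower, so the balance of higher over lower calls rests on the scaling. The second comparison was with 1083 tendon *Csf1r* cells that had fewer than 10 C1q UMIs per 10000, called C1q-low cells. Of 9584 genes, 753 were higher in members (7.86%) and 1053 lower (11.0%), with a median log2 ratio of 0.07. In both comparisons 248 genes were higher. The members are the same cells in each, so the values are given side by side. Since the rule used transcripts of these very cells, every difference below is a description of how the chosen cells looked.

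*Mrc1* and *Ccl8*, named with these macrophages but not used by the rule, were both far higher in them. *Mrc1*, the mannose receptor gene, stood at 1735 CPM (95% Poisson interval 1712 to 1758) in members, 528 CPM in C1q macrophages without the 3 genes, 264 CPM in C1q-low cells, 6.16 CPM in blood *Csf1r* cells and 6.98 CPM in bone marrow *Csf1r* cells. *Ccl8*, a chemokine gene, stood at 1957 CPM (1933 to 1981) in members, 60.6 and 29.4 CPM in the other tendon groups, and 0 in blood and bone marrow *Csf1r* cells. *Ccl8* was thus 32.3-fold higher than in C1q macrophages without the 3 genes (log2 5.01, binomial interval 4.83 to 5.21), a much wider gap than the 3.29-fold of *Mrc1* (log2 1.72, 1.65 to 1.78). Members, at 16.2% of the cells, held 84.8% (84.4 to 85.3) of all *Ccl8* UMIs of the tendon library and 65.6% of those of *Mrc1*.

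To compare shares at equal depth, each cell was thinned to 1000 UMIs. A *Ccl8* UMI remained in 38.9% of members (35.5 to 42.3), and in 2.99% of C1q macrophages without the 3 genes. Cells with fibroblast markers kept a *Ccl8* UMI in 5.45%, and whether they make *Ccl8* themselves was not tested. For *Mrc1* the shares were 68.8% of members and 34.6% of C1q macrophages without the 3 genes, against 0.303% of fibroblast-marker cells. *Mrc1* was therefore found in both kinds of C1q macrophage and *Ccl8* mostly in the members. Unthinned, *Ccl8* was present in 61.3% of members, 13% of the other C1q macrophages and 39.1% of fibroblast-marker cells, whose median depth was 29585 UMIs.

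**Figure D1:**
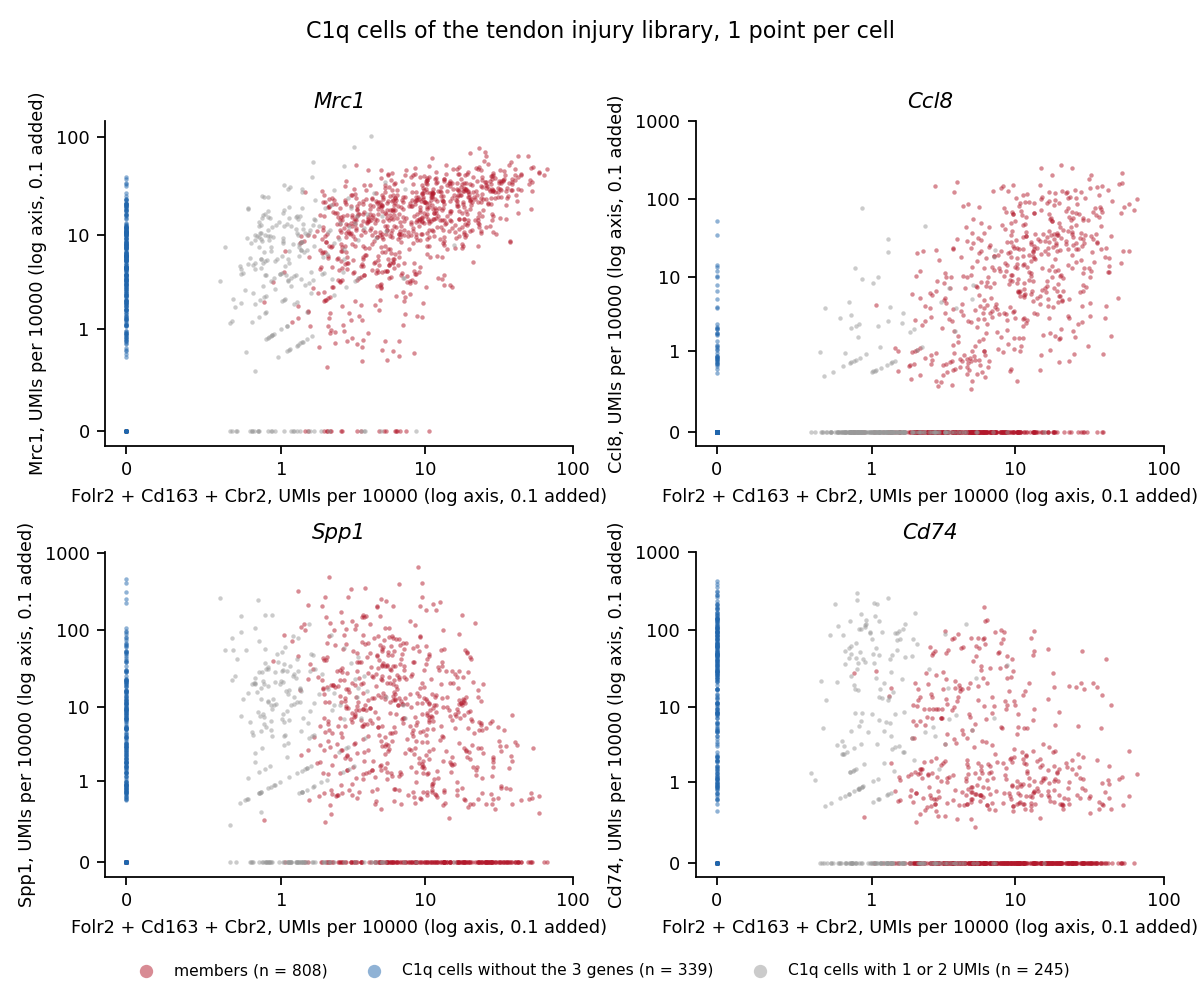
Each point is 1 of 1392 C1q macrophages of the tendon injury library, with the summed level of *Folr2*, *Cd163* and *Cbr2* on the x axis and the level of *Mrc1*, *Ccl8*, *Spp1* or *Cd74* on the y axis, both in UMIs per 10000 on log axes with 0.1 added. Members (red, 808 cells) run from 0 to 279 UMIs per 10000 for *Ccl8*, 655 for *Spp1* and 198 for *Cd74*, which reached 425 in C1q macrophages without the 3 genes, while *Mrc1* was present in 97.5% of members and in 77.3% of the 339 cells without the 3 genes (blue).

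The resident macrophage genes were next, 16 of whose 18 had enough UMIs over both groups. The 2 left out for few UMIs were *Timd4* and *Vsig4*. Before thinning, a *Timd4* UMI was found in 0.619% of members and 0.885% of C1q macrophages without the 3 genes. All 16 that were compared were higher at 2-fold in both comparisons, but 8 of them had under 100 UMIs in C1q macrophages without the 3 genes and passed the filter only with the UMIs of the members, so their count is a description of that choice too. The other 8, with 100 or more UMIs in those cells, were also higher, where 5.06% of all genes were. In C1q-low cells 7 of the 16 had under 100 UMIs and passed in the same way. The 9 with 100 or more were higher, where 7.86% of all genes were. Where the same limit changes a count of higher genes below, the count over genes with 100 or more UMIs in the comparison cells is given too. *Lyve1*, the hyaluronan receptor gene, was at 70.8 CPM in members, at 0 UMIs in C1q macrophages without the 3 genes and at 1.78 CPM in C1q-low cells. Against the limit of 3 UMIs over the 339 cells, *Lyve1* was higher by a log2 ratio of at least 6.49. The C-type lectin genes *Cd209f* and *Cd209d* were at 75.1 and 51.8 CPM in members against 0.787 and 0.262 CPM, and few cells carried them: a UMI of *Cd209f* was found in 4.70% of members and one of *Cd209d* in 5.07%. Both, with *Cd209g* (30.8 CPM against 0, in 4.33% of members), lie in a cluster of related genes on chromosome 8, and reads of such near copies may be split between them. *Fcna*, which encodes a ficolin, was at 28.9 CPM against 1.84 CPM.

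Other resident genes were present in both kinds of macrophage and higher in members. *Pf4*, the gene of platelet factor 4, was at 6591 CPM in members, 2406 CPM in C1q macrophages without the 3 genes and 1419 CPM in C1q-low cells. *Selenop*, which encodes a secreted selenium carrier, was at 3457, 1624 and 409 CPM in the same order. Its 2.13-fold difference from the other C1q macrophages fell under 2-fold in 4 alternatives, to a lowest log2 ratio of 0.75. *Stab1*, a scavenger receptor gene, was at 488, 132 and 64.9 CPM, and *Fcgrt*, the gene of the receptor that recycles antibodies, at 396, 65.9 and 49.0 CPM. *Clec10a*, another lectin gene, was at 228, 50.4 and 40.8 CPM. *Cd5l*, which encodes a secreted macrophage protein, was at 24.5, 3.94 and 0.546 CPM, while in blood *Csf1r* cells it was at 119.7 CPM. It had under 100 UMIs in both groups of comparison cells and passed the filter only with the members.

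*Gas6*, the bridging ligand by which MERTK and AXL recognise dying cells, was at 343 CPM in members and 42.8 CPM in C1q macrophages without the 3 genes (log2 3.00, 2.78 to 3.24). *Igf1*, insulin-like growth factor 1, was at 162 CPM against 28.6 CPM (log2 2.50, 2.22 to 2.79). Fibroblast-marker cells held both genes too, with *Gas6* at 211 CPM and *Igf1* at 286 CPM, and members accounted for 19.4% of the tendon library's *Igf1* UMIs and 36.9% of its *Gas6* UMIs. Among the 16 efferocytosis genes, 14 were compared with C1q macrophages without the 3 genes, and *Gas6*, *Pros1* (another bridging ligand, log2 1.41) and *Stab1* were higher while *Axl*, *Mfge8* and *Havcr2* were lower. Over all genes 5.06% were higher and 2.18% lower. *Pros1* had 58 UMIs in the comparison cells and passed the filter only with the members. *Mertk* was at 73.5 CPM against 48.3 CPM and 16.0 CPM in C1q-low cells, whereas *Axl* was at 8.13 CPM against 30.4 CPM. Of these 2 receptors for GAS6, *Axl* was past 2-fold (log2 -1.91) and *Mertk* was not (0.61). *Mfge8*, the gene of a bridging protein, was lower at log2 -1.61 but reached 0.99 among cells with under 10 MHC class II UMIs.

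**Figure D2:**
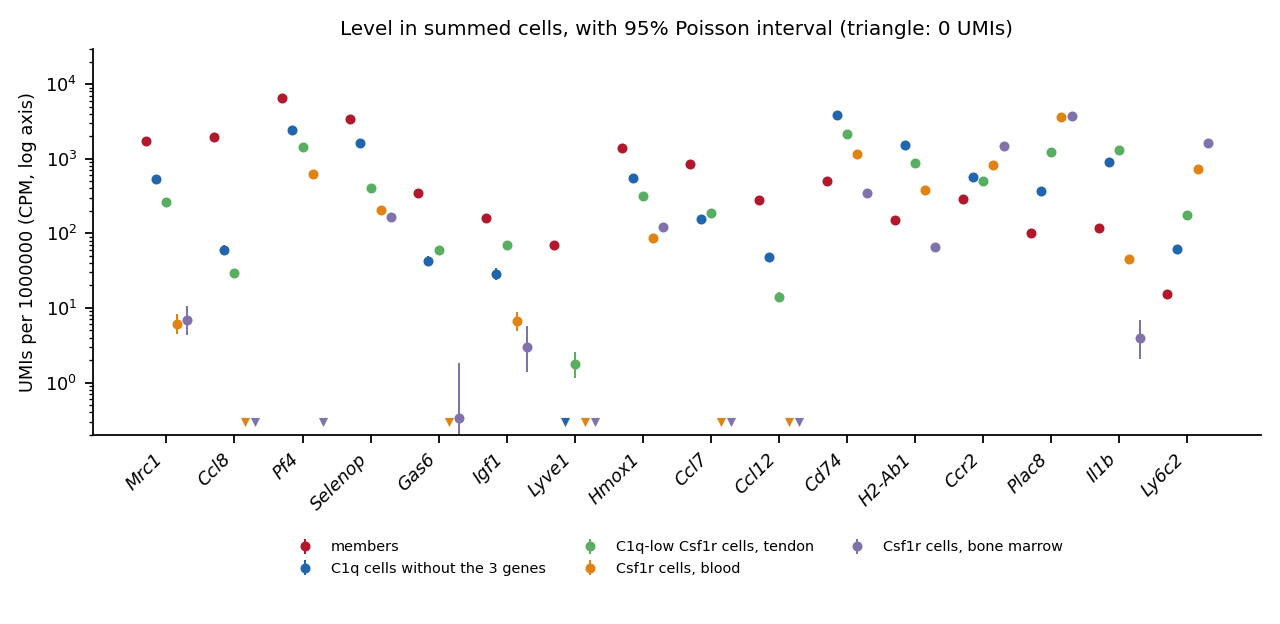
Level in summed cells (CPM, log axis, points with 95% Poisson intervals, a triangle for 0 UMIs) of 16 genes in members, C1q macrophages without the 3 genes, C1q-low *Csf1r* cells of the tendon, and *Csf1r* cells of blood and bone marrow. Members are the highest of the 5 groups for *Mrc1*, *Ccl8*, *Pf4*, *Selenop*, *Gas6*, *Igf1*, *Lyve1*, *Hmox1*, *Ccl7* and *Ccl12*, and lower than C1q macrophages without the 3 genes for *Cd74*, *H2-Ab1*, *Ccr2*, *Plac8*, *Il1b* and *Ly6c2*.

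The chemokine list summed to 19079 CPM in members, 11193 CPM in C1q macrophages without the 3 genes and 10261 CPM in C1q-low cells. Of 16 chemokine genes compared with the other C1q macrophages, 5 were higher and none lower, where 5.06% and 2.18% of all genes were. The 5 were *Ccl2*, *Ccl7*, *Ccl8*, *Ccl12* and *Pf4*. The chemokine gene *Ccl5*, at a log2 ratio of -0.94, was past 2-fold lower in 4 alternatives. Its lowest value was -1.52, among cells with under 10 MHC class II UMIs. Against C1q-low cells 9 of 17 were higher and 3 lower, where 7.86% and 11.0% of all genes were. *Ccl2*, the main attractant of monocytes, was at 937 CPM in members, 378 CPM in C1q macrophages without the 3 genes and 409 CPM in C1q-low cells. *Ccl7*, which acts on the same receptor, was at 846, 154 and 186 CPM, and *Ccl12* at 283, 47.8 and 14.1 CPM. None of the 4 CC chemokines exceeded 9.30 CPM in blood or 4.65 CPM in bone marrow *Csf1r* cells.

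Those 4 genes are neighbours on chromosome 11 (GRCm38), with *Ccl2* starting at 82035571, *Ccl7* at 82045712, *Ccl12* at 82101845 and *Ccl8* at 82115185, a remark made after their values were seen. *Ccl11*, an eosinophil attractant that lies between *Ccl7* and *Ccl12* at 82057823, was at 0.307 CPM in members (4 UMIs) and 13.2 CPM in C1q-low cells. The neutrophil attractants were not higher in members. *Cxcl2* was at 3972 CPM in members, 4737 CPM in C1q macrophages without the 3 genes and 4996 CPM in C1q-low cells, and *Cxcl1* was at 332, 345 and 723 CPM, a log2 ratio of -1.12 to C1q-low cells. That ratio was -0.39 among cells with the leukocyte gene *Ptprc* and under 3 collagen UMIs, a choice made after the values were seen, and fell short of 2-fold in 3 alternatives. *Ccl2* was as high in fibroblast-marker cells, at 1004 CPM, and *Ccl7* reached 513 CPM there, while *Ccl12* was at 0.755 CPM.

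Most transcription factors and receptors of the lineage differed little between the 2 kinds of C1q macrophage. Of 10 factors compared, *Maf* alone was higher (5.06% of all genes were), at 642 CPM in members and 268 CPM in C1q macrophages without the 3 genes (log2 1.26, 1.17 to 1.36, and 0.99 among cells with under 10 MHC class II UMIs), and none was lower. MAF is a factor of mature macrophages. *Spi1*, which encodes PU.1, was at 321 and 395 CPM. *Cebpb*, a factor of monocytes and inflammation, was at 716 CPM in members against 1282 CPM (log2 -0.84). Against C1q-low cells 5 of 12 factors were higher (7.86% of all genes were), *Maf* most (log2 2.43), and 4 of the 10 with 100 UMIs there. Among 15 receptors 3 were higher than in the other C1q macrophages, where 5.06% of all genes were. These were *Nrp1* (neuropilin 1, 533 against 164 CPM), *Il4ra* (the interleukin 4 receptor, 255 against 104 CPM) and *Tgfbr2* (131 against 56.9 CPM, with a lowest log2 ratio of 0.96). Of 11 scavenger and pattern receptors, *Colec12*, *Tlr4* and *Cd36* were higher and *Cd14* was lower, and the 1.03 of *Cd36* and -1.02 of *Cd14* on the log2 scale lay at the 2-fold line. *Colec12* and *Tlr4* had 8 and 61 UMIs in the comparison cells, so of the 9 genes with 100 there 1 was higher.

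MHC class II had the lowest median ratio of the gene lists in both comparisons. All 6 that were compared were lower in members in both comparisons, with median log2 ratios of -2.97 and -2.12. Over all genes 2.18% and 11.0% were lower. *Cd74*, the invariant chain, was at 496 CPM in members, 3806 CPM in C1q macrophages without the 3 genes and 2118 CPM in C1q-low cells. *H2-Ab1*, a class II beta chain, was at 150.4, 1520.5 and 887 CPM, which is 10.1-fold lower than in the other C1q macrophages. Blood *Csf1r* cells held *H2-Ab1* at 376 CPM and bone marrow *Csf1r* cells at 65.4 CPM. Cells with 10 or more UMIs of *H2-Aa*, *H2-Ab1* and *H2-Eb1* per 10000 made up 9.65% of members (7.71 to 11.9), 41.0% of C1q macrophages without the 3 genes (35.7 to 46.4) and 22.8% of C1q-low cells. The lower summed level in members therefore went with fewer cells rich in class II. Among cells with under 10 MHC class II UMIs, *Cd74* was still lower than in the other C1q macrophages, at a log2 ratio of -1.45 in place of -2.94. Dendritic cell markers summed to 6.67 CPM in members and 9.18 CPM in the other C1q macrophages.

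Monocyte genes were lower too, in 12 of 15 compared with C1q macrophages without the 3 genes and in 13 of 16 compared with C1q-low cells, with medians of -1.35 and -1.90. The shares of all genes that were lower were 2.18% and 11.0%. *Ly6c2*, the surface marker of inflammatory monocytes, was at 15.3 CPM in members, 61.4 and 175 CPM in the other tendon groups, 731 CPM in blood and 1636 CPM in bone marrow *Csf1r* cells. *Plac8* ran in the same order, at 101, 371, 1249.9, 3594 and 3697 CPM. *Vcan*, which encodes the matrix proteoglycan versican, and *Hp*, haptoglobin, were lower than in the other C1q macrophages by log2 ratios of -2.61 and -2.96. *Ccr2*, the receptor for CCL2, was not lost: it stood at 286 CPM in members against 575 and 502 CPM, and its ratio to the other C1q macrophages crossed 2-fold with the processing (-1.16 to -0.65). After thinning, a *Ccr2* UMI remained in 24.4% of members and 34.3% of the other C1q macrophages.

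Of 9 inflammatory genes compared with C1q macrophages without the 3 genes, 4 were lower (2.18% of all genes were), 5 were within 2-fold and none was higher. *Il1b*, interleukin 1 beta, was at 118 CPM in members, 891 CPM in the other C1q macrophages and 1327 CPM in C1q-low cells (log2 -2.91 and -3.49). *Ptgs2*, the inducible cyclooxygenase, was at 119, 303 and 407 CPM. *Tnf* was closer, at 215, 289 and 250.3 CPM. *Acod1*, the enzyme that makes itaconate, was at 3.68 CPM in members, which held 0.700% of the library's *Acod1* UMIs. Neutrophil markers summed to 179.5 CPM in members, 288 CPM in the other C1q macrophages and 465 CPM in C1q-low cells, with *S100a8* the most abundant in each, and their part in these values was not tested.

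**Figure D3:**
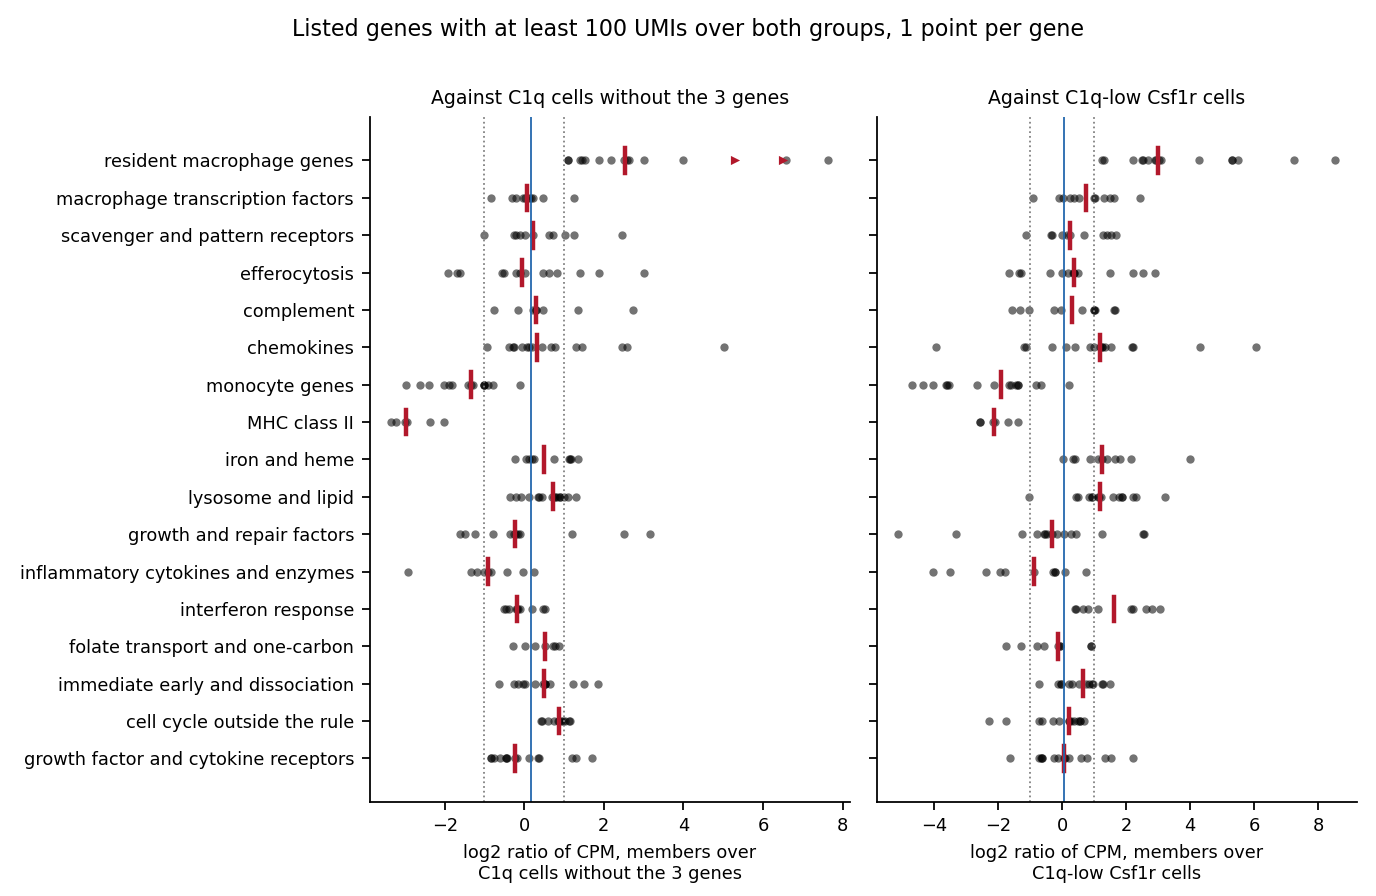
Log2 ratio of CPM for each listed gene with at least 100 UMIs over both groups, members over C1q macrophages without the 3 genes (left) and over C1q-low *Csf1r* cells (right). Red bars are list medians, red triangles lower bounds, dotted lines 2-fold and the blue line the median of all genes, 0.16 and 0.07. The resident macrophage list lies wholly to the right of 2-fold and MHC class II wholly to the left in both panels.

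Genes of heme and iron handling, the cargo taken up through CD163, were higher in part. Against C1q macrophages without the 3 genes 4 of 10 were higher (5.06% of all genes were), and against C1q-low cells 7 of 11 (7.86% of all genes), with none lower in either. Over genes with 100 UMIs in the comparison cells these counts were 4 of 9 and 5 of 9. *Hmox1*, heme oxygenase 1, was at 1390 CPM in members, 549 and 316 CPM in the other tendon groups, 87.7 CPM in blood and 120.2 CPM in bone marrow *Csf1r* cells. *Blvrb*, which acts on the product of heme breakdown, was at 392 CPM against 174 CPM, and *Slc48a1*, a heme transporter, at 122 CPM against 55.9 CPM. With comparison cells of 0 to 2 UMIs of the 3 genes, both fell under 2-fold, to log2 ratios of 0.87 and 0.96. *Slc40a1*, the iron exporter ferroportin, was at 15.3 CPM in members and 13.4 CPM in C1q macrophages without the 3 genes but 0.956 CPM in C1q-low cells, where it had 14 UMIs. The ferritin genes *Fth1* and *Ftl1* differed little from the other C1q macrophages, by log2 ratios of 0.12 and 0.24.

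Of 16 lysosome and lipid genes, 3 were higher than in C1q macrophages without the 3 genes, where 5.06% of all genes were. In the comparison with C1q-low cells 10 were higher and 1 lower, against 7.86% and 11.0% of all genes. The protease gene *Ctsb* was at 5808, 2899 and 1182 CPM, and *Ctsd* at 3311, 1549 and 722 CPM, both near 2-fold in the first comparison. *Lpl*, lipoprotein lipase, was at 373, 150.4 and 161 CPM, and its first ratio fell to a log2 value of 0.83 among cells with under 10 MHC class II UMIs. *Apoe*, apolipoprotein E, was the most abundant of them and no higher in members (10816 CPM) than in the other C1q macrophages (12516 CPM). *Spp1*, osteopontin, was at 2745, 1468 and 1260.2 CPM, and its difference from C1q-low cells went from a log2 ratio of 1.12 to 0.09 when only cells of 5000 to 20000 UMIs were used.

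Growth and repair factors divided. Of 12 compared with C1q macrophages without the 3 genes, *Pdgfc* (a platelet-derived growth factor, 30.6 against 3.41 CPM), *Igf1* and *Hbegf* were higher. In that comparison 5.06% of all genes were higher and 2.18% lower. *Pdgfc* and *Hbegf* had 13 and 91 UMIs in the comparison cells and passed the filter only with the members, so of the 7 genes with 100 there *Igf1* alone was higher. *Vegfa*, the vascular growth factor (36.6 against 111 CPM), *Tgfbi* (611 against 1458 CPM) and *Pdgfb* were lower, *Pdgfb* with 54 UMIs in the comparison cells. *C4b*, a complement component, was at 45.1 CPM against 6.82 CPM. Of 8 complement genes outside the rule 2 were higher, *C4b* among them, and none was lower. *C4b* had 26 UMIs in the comparison cells, so of the 7 genes with 100 there 1 was higher.

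No interferon response gene of 10 reached 2-fold in either direction against C1q macrophages without the 3 genes. Against C1q-low cells 6 of 10 were higher (7.86% of all genes were), among them *Ifit3* at 68.6 CPM against 9.76 CPM, and 5 of the 9 with 100 UMIs there. Of the folate transport and one-carbon genes, none of 7 reached 2-fold against C1q macrophages without the 3 genes, where 1 of the 7 had 100 UMIs, and 2 of 9 were lower than in C1q-low cells (11.0% of all genes were). Among the immediate early and stress genes, which enzymatic release of cells can induce, *Egr1* (687 against 245 CPM), *Hspa1a* and *Hspa1b*, 3 of 14, were higher, where 5.06% of all genes were. *Hspa1a* and *Hspa1b* are near copies whose reads may be split, and *Hspa1b*, with 41 UMIs in the comparison cells, passed the filter only with the members. All tendon groups went through the same digestion, and its part in the *Egr1* difference was not tested. Of 11 cell cycle genes outside the rule, *Mcm6*, *Birc5* and *Ube2c* were higher, each at 27.6 CPM or less and with 48, 14 and 14 UMIs in the comparison cells. All 3 passed the filter only with the members, and neither of the 2 genes with 100 UMIs there was higher.

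By the fixed rule of size, the 15 genes farthest above C1q macrophages without the 3 genes began with *Lyve1*, *Ccl8* and *Fcna* and also held *Pdgfc* and *Gas6*. Those outside the lists were led by *Aldh7a1* (log2 3.45), *Gpt2* (3.38), *Kank2* (3.16), *Ednrb*, the endothelin receptor type B gene (306 against 36.2 CPM), and *Npl*, an enzyme of sialic acid breakdown (177 against 21.0 CPM). Of the genes named here, *Lyve1*, *Fcna*, *Pdgfc*, *Aldh7a1*, *Gpt2*, *Kank2* and *Npl* had under 100 UMIs in the comparison cells. They passed the filter only with the members, so their rank is a description of that choice too. A UMI of *Npl* was found in 63.6% of members and 13.6% of the others, and one of *Ednrb* in 59.5% and 15.9%. The 15 farthest below held 4 class II genes together with *Hp*, *Il1b* and *Vcan*, and outside the lists *Gm9733* (log2 -4.19), *Ifitm1* (22.0 against 339.6 CPM), *Mcemp1*, *Il1r2*, the decoy receptor for interleukin 1, and *Napsa*. Against C1q-low cells, *Npl* (log2 4.45), *Ccl12* (4.32), *Hpgds*, the hematopoietic prostaglandin D synthase gene (3.53), *Fcrls* (3.36) and *Ednrb* (3.34) stood high.

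Many of the genes farthest below in the comparison with C1q-low cells were fibroblast genes, including *Dcn*, *Postn*, *Col1a1*, *Col1a2* and *Col3a1*. Fibroblast markers summed to 4830.1 CPM in those cells, and 106 of the 1083 carried at least 3 of them. With cells limited to those holding *Ptprc* and fewer than 3 collagen UMIs (695 members and 897 C1q-low cells), 383 genes instead of 1053 were lower. Erythroid genes among those below in the first comparison came from a single cell, which held 1635 of the 1637 hemoglobin UMIs of the C1q macrophages without the 3 genes.

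The C1q macrophages were next ordered by how much of the 3 genes they held, in 5 bins with 339, 107, 243, 374 and 329 cells (0, below 1, 1 to below 3, 3 to below 10, and 10 or more UMIs per 10000). The bins hold 0, 2, 128, 350 and 328 members. *Ccl8* was at 60.6, 98.7, 177, 949 and 3857 CPM from the first bin to the last. *Mrc1* went from 528 CPM to 527, 844, 1362 and 2578 CPM, and *Gas6* from 42.8 to 103, 121, 205 and 589 CPM. *Ccl8* thus differed mainly within the upper bins, made up almost wholly of members. *Lyve1* was later still, at 0, 0, 0.535, 12.2 and 167 CPM. *Cd209f* was at 0.787, 0, 0.535 and 0 CPM in the lower 4 bins and 190.3 CPM in the last.

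Going the other way, *Cd74* was at 3806, 2575, 1143, 770.5 and 235 CPM and *Il1b* at 891, 376, 258, 133 and 67.7 CPM over the same bins. *Cx3cr1*, the fractalkine receptor gene, was between 34.4 and 59.8 CPM in the first 4 bins and 4.09 CPM in the last. Other genes were highest in the middle. *Spp1* was at 1468, 2586, 2992, 3772 and 1093 CPM, and *Gpnmb*, a lysosomal glycoprotein gene, at 164, 364, 393, 249 and 55.7 CPM. Members therefore spanned both the bin with the most *Spp1* and one of those with the least.

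**Figure D4:**
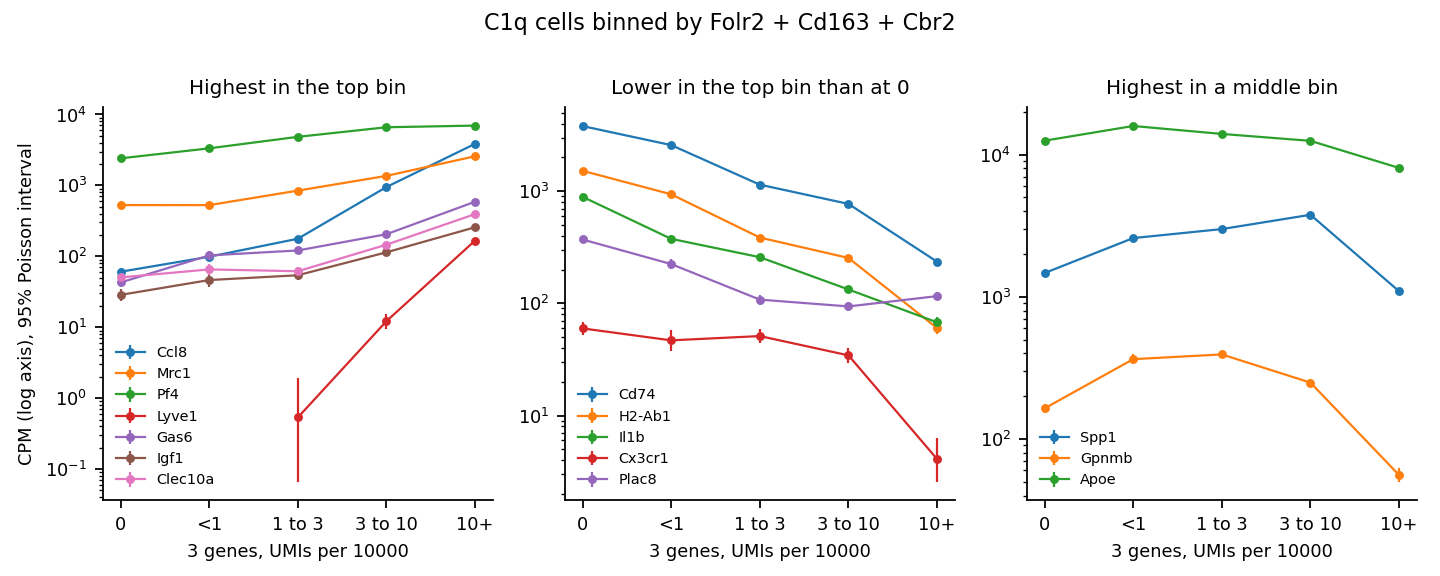
Summed level (CPM, log axis, 95% Poisson intervals) in the 1392 C1q macrophages divided into 5 bins by UMIs of *Folr2*, *Cd163* and *Cbr2* per 10000. *Ccl8*, *Lyve1*, *Gas6* and other resident genes are highest in the last bin (left), *Cd74*, *H2-Ab1*, *Il1b*, *Cx3cr1* and *Plac8* are lower there than in cells without the 3 genes (middle), and *Spp1*, *Gpnmb* and *Apoe* peak in between (right). Points at 0 UMIs are not drawn.

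The members were not uniform, and the spread of single genes among them shows it. The 81 members with the highest level of a gene, 10% of all, held 31.7% of its UMIs for *Folr2*, 30.8% for *Mrc1* and 26.1% for *C1qa*. For *Ccl8* the top 81 held 66.6%, for *Cd163* 60.5%, for *Spp1* 74.3%, for *Hmox1* 68.0%, for *Cd74* 80.7% and for *Lyve1* 85.9%. The rule set a lowest C1q level and a lowest sum of the 3 genes for every member, which bears on the shares of *Folr2*, *C1qa* and *Cd163*. Among the genes outside the rule, transcripts of *Ccl8*, *Spp1*, *Hmox1*, *Cd74* and *Lyve1* were concentrated in fewer cells than those of *Mrc1*, although a UMI of *Hmox1* was found in 92.2% of members, one of *Spp1* in 73.1% and one of *Ccl8* in 61.3%, against 20.8% for *Lyve1*.

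The members were also split by *Cd163*, a choice made after the values were seen. No *Cd163* UMI was found in 393 members (median 14959 UMIs), 157 held less than 3 per 10000 (median 16628) and 258 held 3 or more (median 15144). *Lyve1* was at 19.2, 35.0 and 179 CPM in that order, with a UMI in 7.89%, 16.6% and 43.0% of cells. *Cd209f* was at 2.36 CPM without *Cd163* and 221 CPM at high *Cd163*, where 12.8% of the cells carried it, and its 34.6 CPM in between came from 1 cell with 95 UMIs. *Cd209d* was at 2.36 and 139 CPM, also in 12.8% of the cells at high *Cd163*, and its 41.9 CPM in between came from 1.91% of 157 cells. Members with the most *Cd163* also held more *Ccl8* (738, 2349 and 3656 CPM), *Gas6* (216, 281 and 592 CPM), *Clec10a* (127, 219 and 399 CPM) and *Hmox1* (998, 1730.3 and 1786 CPM). *Spp1* went from 3728 to 3149 and 872 CPM and *Gpnmb* from 372 to 87.1 and 34.1 CPM. *Fn1*, fibronectin, went from 455 to 310.5 and 159 CPM, and *Cx3cr1* from 38.0 to 23.0 and 4.32 CPM. Against these wide gaps, *Ctsb* (5839, 5854 and 5727 CPM), *Pf4* (5935, 7098 and 7297 CPM) and *Ccr2* (282, 295 and 288 CPM) were nearly level. *C1qa*, which the rule used, was at 2759, 2996 and 3116 CPM.

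**Figure D5:**
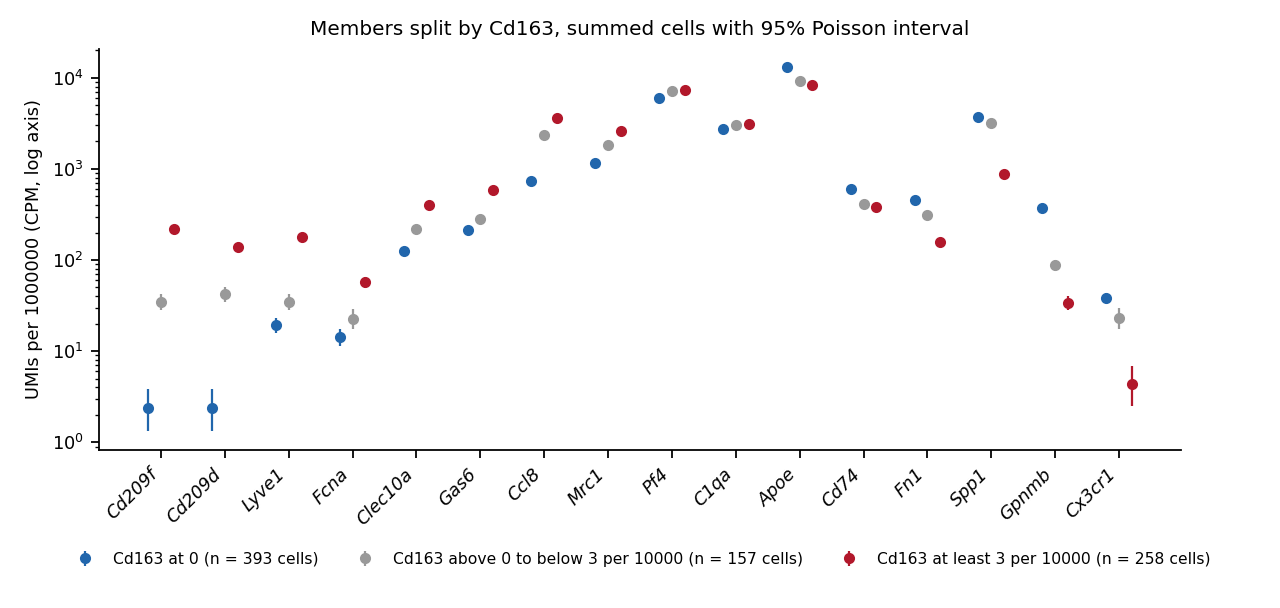
Summed level (CPM, log axis, 95% Poisson intervals) of 16 genes in the 808 members split by *Cd163* into 393 cells at 0, 157 cells below 3 UMIs per 10000 and 258 cells at 3 or more. The Cd209 genes (carried by 12.8% of the 258 cells), *Lyve1*, *Fcna*, *Clec10a*, *Gas6* and *Ccl8* are highest at high *Cd163*, *Spp1*, *Gpnmb* and *Cx3cr1* are highest where *Cd163* is 0, and *C1qa* and *Pf4* are close in all 3.

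A *Lyve1* UMI remained after thinning in 43 members (5.32%, 3.88 to 7.10), a minimum count of *Lyve1* cells since the gene is of low level. In them *Cd163* was at 1508 CPM against 307 CPM in the other 765 members, *Cd209f* at 843 against 26.3 CPM, *Clec10a* at 976 against 181 CPM and *Ccl8* at 6319 against 1679 CPM. *Spp1* was at 133 against 2911 CPM and *Cd74* at 104 against 521 CPM, and *Cx3cr1* was at 0 UMIs. *Lyve1* cells and members with the most *Cd163* did not differ from the rest alike on every gene: *Pf4* was lower in the 43 cells (log2 -0.62) and *Ccr2* too (-0.66), while over the *Cd163* split *Pf4* was somewhat higher and *Ccr2* level.

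The 78 members rich in class II were another small set. Compared with the other members, they were higher in *Ccr2* (log2 1.07), *Cx3cr1* (1.37) and *Il1b* (1.22) and lower in *Ccl8* (-1.19), *Hmox1* (-1.92) and *Spp1* (-3.21), while *Folr2* was at -0.49. The monocyte genes *Ly6c2* and *Plac8* were at 0.43 (-0.28 to 1.08) and 0.88, and the rest of the monocyte list was not examined in this split.

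Over 1388 C1q macrophages thinned to 1000 UMIs, the genes whose level went most closely with the sum of *Folr2*, *Cd163* and *Cbr2* were *Ccl8* (Spearman rho 0.47), *Mrc1* (0.34), *Selenop* (0.32), *Fcgrt* (0.30), *Gas6* (0.28), *Ccl7*, *Ednrb* and *Egr1* (0.26 each), and *Serpinb6a* and *Pf4* (0.25 each). The lowest were *Cd52* (-0.27), *Thbs1* (-0.26) and *Cd74* (-0.25). Only genes with a UMI in at least 10% of members were ranked, so genes low in members could be missing from the lowest end. After thinning, a UMI of *Il1b* remained in 6.93% of members and one of *H2-Ab1* in 8.66%. The ranking is therefore a description of that choice too. These cells share 1 library, 1284 genes were compared, and counts after thinning are sparse, so the values rank genes and carry no p.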

How the data were processed

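Cells of bone marrow, blood and tendon injury were profiled by droplet 3′ single-cell RNA-seq (1 library each). The authors deposited raw UMI counts per gene and cell for 27998 genes, made with Cell Ranger 5.0.1 (file header) on mm10 (the submitters' processing notes). They carry no cell annotation. Cells were selected by the thresholds given with the results, and each threshold is a count of UMIs or a share of a cell's UMIs. UMIs were summed over the cells of a group and divided by the group's total. Ratios carry exact binomial intervals and levels exact Poisson intervals, both for counting error only. A count of 0 was bounded by 3 UMIs over the group. Genes with at least 100 UMIs over both groups were compared, without the 11 genes of the rule, and called at 2-fold. No test was run, since there was 1 library per tissue and cells are not replicates.

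The text names genes of 19 lists and 17 marker lists (307 genes), the 15 genes with the largest ratio in each direction and comparison that were detected in no less than 10% of the cells of whichever group was higher, and the 10 genes most like the 3 rule genes. *Ccl11*, the *Cd163* split and the remark on the chemokine row lie outside that rule and were added after the values were seen. The members and the lists were chosen with earlier results of these data known.

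Doublets were kept, as the rule has no doublet step. Removing the highest Scrublet scores at 0.8% per 1000 cells (198 of 4978 cells, 27 of them members) was an alternative, beside other filters, thresholds, scalings and depths. Clusters were made from the 2770 filtered tendon cells with *Csf1r* by the Leiden method at resolution 0.5, on 2000 variable genes without the rule genes, 30 principal components and 15 neighbours. Python 3.11.15, numpy 2.4.6, scipy 1.17.1, pandas 2.3.3 and scanpy 1.11.5 were used, and calculations were tested on simulated data. Promoter sequences came from RefSeq for GRCm38.p6 and matched all 5 genes searched. *Selenop* is listed in the files as *Sepp1*. *Clec7a* and *Trac* were not analysed here, and some listed genes are not reported here. The columns of the files each belong to 1 sample.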

Additional observations from a re-analysis of the deposited data

How the results depend on the processing

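No paired analysis was possible because each tissue had 1 library, and for the same reason no library could be left out. The share of tendon cells that were members was 16.2%, between 15.5% and 16.7% under the other filters, and moved to 13% with at least 5 UMIs of the 3 genes and to 14.1% with at least 3 per 10000, by which 2 blood cells qualified in place of 4. Against C1q macrophages without the 3 genes (411 higher, 177 lower), centring on the median gene gave 268 higher, comparison cells with 0 to 2 UMIs 255, genes with at least 1 UMI 1335 and 713 lower, genes with at least 20 UMIs 972 and 400, a 1.5-fold line 1290 and 443, and a 3-fold line 111 and 72. Against C1q-low cells (753 higher, 1053 lower), genes with at least 1 UMI gave 1444 and 3122, 1.5-fold 1738 higher, 3-fold 249 higher, at least 20 UMIs 2129 lower, cells of 5000 to 20000 UMIs 394 lower, and cells with *Ptprc* and under 3 collagen UMIs 383 lower. Lower minimum counts admit more genes of few UMIs by construction.

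Directions reversed for few of the genes that were at 2-fold or more. Against C1q macrophages without the 3 genes, *Prg4* (2.30 on the log2 scale) went to -0.27 without the highest Scrublet scores, -0.19 with 3 UMIs per 10000 and -0.16 at 5000 to 20000 UMIs, and *Mfge8* (-1.61) went to 0.99 among cells with under 10 MHC class II UMIs. Against C1q-low cells, *Fgfr1* (-1.20) was 0.01 as a mean over cells, and at 5000 to 20000 UMIs *Fgfr1* was 1.33, *Axl* 0.45, *C2* 0.29, *Mfge8* 0.05, *Rrm2* 1.65 and *Tyms* 0.64. With *Ptprc* and under 3 collagen UMIs, *Axl* was 0.47, *C2* 3.77, *Col1a1* 0.25, *Col3a1* 0.07, *Cxcl12* 0.29, *Fabp4* 0.90, *Fgfr1* 2.21, *Il6st* 0.08, *Mfge8* 0.91, *Prg4* 0.07 and *Tyms* 0.39. Apart from the mean over cells, fewer cells entered each of these fits, and the cause was not tested. Of 3003 values of 231 genes in the first comparison 4 reversed and 621 others moved beyond their counting interval, and of 2739 values of 249 genes in the second 18 reversed and 862 moved. A change of sign was counted as a reversal only for genes at 2-fold or more in the results above. Changes of sign in genes within 2-fold were not counted apart, and ratios given as bounds were never counted as moved. Resident genes near 2-fold in the first comparison crossed it under some settings. *Selenop* fell lowest of those named, as given above, and *F13a1* and *Pf4* reached 0.93 and 0.99 at the lowest.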

Other observations

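Clustering of the 2770 tendon *Csf1r* cells without the rule genes gave 13 clusters, and the members did not form 1 of them. They lay mainly in 5 clusters, given here by number because they were made from these same transcripts and describe them only. Cluster 5 held 269 members (33.3%), cluster 4 held 198 (24.5%), cluster 11 held 136 (16.8%), cluster 6 held 129 and cluster 13 held 49 (6.06%). Every cell of cluster 13 and 86.5% of cluster 5 were members. C1q macrophages without the 3 genes lay most often in cluster 2 (119 cells, 35.1%), which held 25.9% of the C1q-low cells and only 14 members (1.73%). A further 28.3% of them lay in cluster 4, 51 cells in cluster 6, 10.6% in cluster 11 and 1.77% in cluster 5.

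The members of cluster 13 had *Cd209f* at 1103 CPM, *Lyve1* at 597 CPM, *Clec10a* at 1234 CPM and *Ccl8* at 7361 CPM, with *Spp1* at 33.4 CPM. Those of cluster 11 had *Spp1* at 8483 CPM and *Hmox1* at 2153 CPM, with *Cd209f* at 0. Cluster 6 members had *Apoe* at 26480.3 CPM, *Gpnmb* at 862 CPM and the interferon gene *Isg15* at 688 CPM. Cluster 4 members had the most *Cd74* (1027 CPM) and *Ccr2* (545 CPM). *Hmox1* was thus as high in the cluster rich in *Spp1* as in the one rich in *Cd209f* (2153 and 2295 CPM), unlike the genes that told them apart. At resolution 1.0 the largest cluster held 31.4% of members, and a cluster of 49 cells was again made up of members alone. With the rule genes kept the largest held 36.1%, and no cluster was made up of members alone, the highest share of members in one being 93.7%.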
